A study of Mus musculus with 6 samples.

Results

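Fat cells keep triglyceride in lipid droplets, and this account follows 10 genes whose proteins coat those droplets, fuse them or help them form. They are the 5 perilipin genes Plin1 to Plin5, the CIDE genes Cidea, Cideb and Cidec, the seipin gene Bscl2 and the gene of fat storage-inducing transmembrane protein, Fitm2. The genes were chosen by family and function, with earlier results of these data known. Each was read by the probe set that the platform annotation gives to that gene alone. Of the 10 genes, 9 had 1 such probe set each, among 21996 genes with a probe set of their own. Cideb shared its probe set with Nop9, so it has no value of its own.

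The measurements come from 6 single-colour Affymetrix Mouse Gene ST arrays hybridised with total RNA of adipocytes made from C3H10T1/2 cells, an established mouse mesenchymal line. In 3 biological replicates an adenovirus carried a short hairpin RNA against Zc3h10 under a U6 promoter (Zc3h10 shRNA), and in 3 it carried a scrambled hairpin (scramble). Zc3h10 encodes a CCCH-type zinc finger protein. All cultures are given as 9 days differentiated and as exposed to virus for 72 h at a multiplicity of infection of 50, so the scramble cultures share the infection, and no uninfected culture was analysed here. When in the 9 days the exposure fell is not stated in the labels.

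In adipocytes, perilipins sit on the droplet surface and control the access of lipases to the stored fat. PLIN1 is the main coat protein of the mature fat cell and holds the lipase co-activator ABHD5 until adrenergic signals release it. PLIN2 and PLIN3 are found in most cell types, PLIN4 on small droplets of adipocytes and PLIN5 mainly in oxidative tissues. The CIDE proteins gather where droplets touch and move lipid into the larger one, with CIDEC prominent in white fat and CIDEA in brown fat. Seipin, the product of Bscl2, and FITM2 act in the endoplasmic reticulum, where new droplets bud.

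Promoter sequence is shown for Plin1, Plin2 and Plin5, which held a match to a motif of fat cell regulators before the gene's own span. It is also shown for Plin4, which lies beside Plin5 and fell, and for Plin3, which lies near that pair and did not. RefSeq (GRCm38.p6) gave windows for 9 of the 10 genes, 13 windows in all, and Cidea was the gene without one. Only bases before the gene's own RefSeq span are printed, all on the minus strand, from chr7:79732905-79733026 for Plin1, chr4:86670218-86670309 for Plin2, chr17:56117607-56117798 for Plin5, chr17:56109949-56110032 for Plin4 and chr17:56290512-56290761 for Plin3. Capitals mark the nuclear receptor hexamer AGGTCA and the C/EBP motif TTNNGCAA on either strand.
Plin1: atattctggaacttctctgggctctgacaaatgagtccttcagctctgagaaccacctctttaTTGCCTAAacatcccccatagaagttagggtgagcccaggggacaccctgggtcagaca
Plin2: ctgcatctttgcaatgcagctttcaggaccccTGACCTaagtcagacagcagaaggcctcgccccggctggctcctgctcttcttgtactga
Plin5: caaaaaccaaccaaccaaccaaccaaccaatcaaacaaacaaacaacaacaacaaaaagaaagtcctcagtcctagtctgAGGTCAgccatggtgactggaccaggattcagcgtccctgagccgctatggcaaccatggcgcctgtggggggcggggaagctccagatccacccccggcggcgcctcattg
Plin4: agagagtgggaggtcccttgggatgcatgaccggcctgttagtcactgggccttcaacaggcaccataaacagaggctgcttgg
Plin3: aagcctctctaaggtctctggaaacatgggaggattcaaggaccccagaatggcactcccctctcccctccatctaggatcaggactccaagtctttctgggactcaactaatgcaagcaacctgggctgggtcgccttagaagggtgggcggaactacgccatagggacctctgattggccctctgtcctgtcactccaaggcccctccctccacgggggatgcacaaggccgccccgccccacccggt

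Motifs were searched on both strands in the 250 bases before each start, and a match is a run of letters and not a measured binding site. The element of the PPAR-RXR pair of nuclear receptors, AGGTCANAGGTCA, occurred in 0 of the 13 windows and in 0.0335% of all 32851 windows in the table. Looser forms of it were tried after this one gave no match and are not reported. The hexamer AGGTCA, which that element holds 2 times, matched 3 windows, of Plin2, Plin5 and Bscl2 (14.0% of all windows). TTNNGCAA matched 2 windows, of Plin1 and of 1 of the Cidec starts (9.56% of all windows). The matched Bscl2 and Cidec windows belong to starts within the gene and lie wholly inside the gene's own span, so they are not printed. The starts of Plin1, Plin2, Plin5 and Plin4 also lie within the span, so their printed 122, 92, 192 and 84 bases end short of the start. The Plin1 window held TTNNGCAA at bases 187 to 180, shown in capitals, and at bases 58 to 51, which lie inside the gene's span. The printed Plin4 and Plin3 stretches held neither. Of the general promoter elements, CCAAT matched 5 of the 13 windows, GGGCGG 5, TATAAA 1 and CACGTG 0, against 33.8%, 32.7%, 12.4% and 6.02% of all windows.

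Intensities are given in linear units as deposited, and changes as mean log2 in Zc3h10 shRNA cells minus mean log2 in scramble cells, ± the SE that limma estimates. Its p-values are adjusted over all 33079 probe sets by Benjamini-Hochberg, with a threshold of 0.05. In either direction 9.79% of probe sets passed, and 12.1% of genes with a probe set of their own. Of those genes, 6.60% passed as lower and 5.51% as higher in the Zc3h10 shRNA cells, and the median log2 change was 0.013. The hairpin's target, Zc3h10, read 25.2, 30.2 and 22.9 units on the Zc3h10 shRNA arrays, against 25.9, 39.0 and 35.3 units on the scramble arrays. Its log2 change was -0.34 ± 0.17 and did not pass (adjusted p = 0.301; exact permutation p = 0.2, two-sided, with 0.1 the lowest the design allows). The value was -0.52 without scramble replicate 1 (adjusted p = 0.0810), -0.22 without scramble replicate 2, and -0.22 and -0.17 with offsets of 16 and 32 units added before log2, and it passed under none of the 17 alternatives. The groups overlapped for Zc3h10, and its mean in Zc3h10 shRNA cells lay only 0.32 log2 above the limit for silent genes defined with Plin5, so the group labels rest on the titles. Array medians lay between 15.6 and 16.1 units, and log2 values correlated at 0.992 to 0.994 within a group and at 0.985 to 0.988 between groups.

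Of the 9 measured genes, 7 were lower in Zc3h10 shRNA adipocytes and 0 were higher by limma, against 6.60% and 5.51% of all genes. At an unadjusted p under 0.05, 8 were lower and 0 were higher. The share of all genes at that unadjusted threshold was not computed. This count, and the unadjusted counts of the lists below, therefore have no all-gene share to be read against. The median log2 change over the 9 was -1.10. Of the 9 genes, 6 passed with a fall of at least 2-fold, as did 1.23% of all genes. The Zc3h10 shRNA arrays all lay below the scramble arrays for 8 of the 9 genes, a pattern found for 15.2% of all genes. The 7 lower genes were Plin1, Plin2, Plin4, Cidea, Cidec, Bscl2 and Fitm2. Plin3 and Plin5 did not pass.

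**Figure D1:**
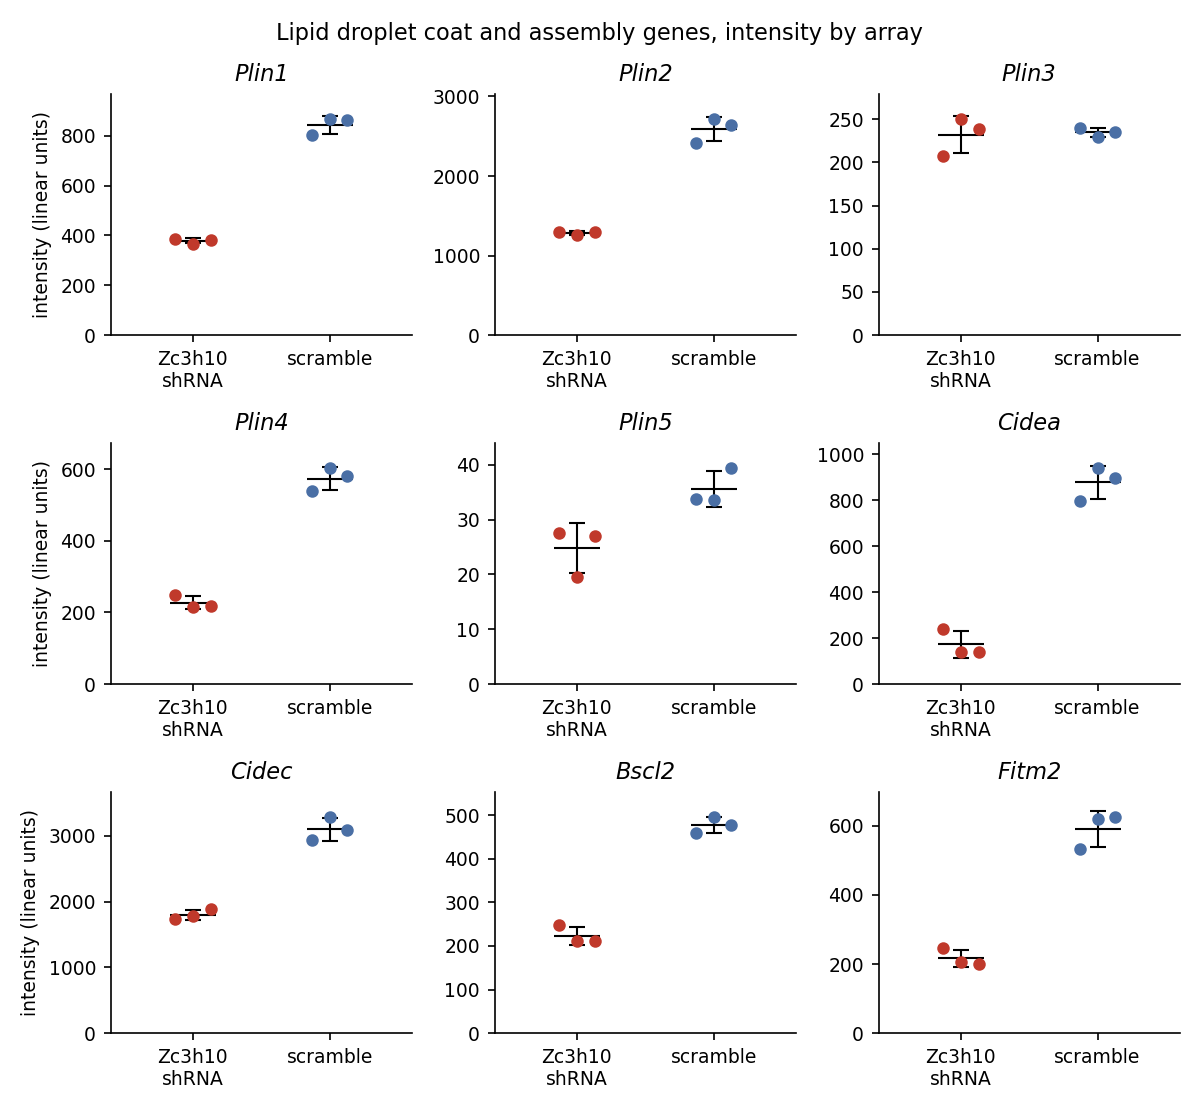
Intensity in linear units of the 9 measured genes, 1 panel a gene, with the 3 Zc3h10 shRNA arrays left and the 3 scramble arrays right. Points are arrays, the horizontal bar is the mean and the whiskers are 1 SD (n = 3). The groups overlap in the Plin3 panel and are apart in the other panels.

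Among the perilipins, Plin1 read 388, 368 and 380 units in Zc3h10 shRNA cells and 802, 866 and 864 units in scramble cells. Arrays of a group lay close together, with means of 378 ± 10.1 units in Zc3h10 shRNA cells and 844 ± 36.2 units in scramble cells (SD, n = 3 each). Plin1 was therefore 2.23-fold lower, at -1.16 ± 0.09 (adjusted p = 0.000658), which is 44.9% of the scramble level with a 95% interval of 39.1 to 51.4%.

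Plin2, which coats droplets in most cell types and early in fat cell formation, read 1297, 1257 and 1294 units in Zc3h10 shRNA cells and 2419, 2712 and 2637 units in scramble cells. The groups were far apart, and the fall was 2.02-fold, at -1.01 ± 0.09 (adjusted p = 0.000780). Plin4 read 248, 214 and 219 units in Zc3h10 shRNA cells, against 539, 602 and 580 units in scramble cells. Its change of -1.34 ± 0.10 was the lowest among the perilipins, a 2.53-fold fall (adjusted p = 0.000658).

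Plin3, a perilipin that moves from the cytosol onto young droplets, did not follow. It read 208, 250 and 239 units in Zc3h10 shRNA cells and 240, 230 and 235 units in scramble cells, with the scramble arrays inside the range of the Zc3h10 shRNA arrays. Its log2 change was -0.019 ± 0.10 (adjusted p = 0.944), and the 95% interval of its Zc3h10 shRNA level was 84.3 to 116% of scramble. The sign of this small value turned to 0.0058 with quantile normalization, to 0.0028 with array weights and to 0.058 without Zc3h10 shRNA replicate 1.

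Plin5, which links droplets to mitochondria in heart, liver, muscle and brown fat, had a dim probe set. It read 27.6, 19.5 and 27.1 units in Zc3h10 shRNA cells, against 33.8, 33.5 and 39.3 units in scramble cells. All 3 Zc3h10 shRNA arrays lay below the scramble arrays, with replicate 2 lowest. The log2 change of -0.54 ± 0.15 did not pass (adjusted p = 0.0650), and its 95% interval ran from -0.88 to -0.19. The value itself was smaller with an offset added before log2, at -0.34 with 16 units and -0.25 with 32. It passed when the dimmest probe sets, those below the lower quartile, were dropped (adjusted p = 0.0499), when those under the median were dropped (0.0304) and with an intensity trend in the variance prior (0.0413). Over 11 alternative settings its adjusted p ranged from 0.0304 to 0.216, and with an array left out from 0.0679 to 0.182. The mean log2 level in Zc3h10 shRNA cells was 4.61, which is 0.24 above 4.37, the 97.5th percentile of 1375 receptor genes for smell and pheromones, which stand in for silent genes. The other 8 measured genes lay at least 3.01 above that limit in both groups.

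Of the CIDE genes, Cidea had the lowest change of the 9, and the 7th lowest of 21996 genes. It read 240, 139 and 139 units in Zc3h10 shRNA cells and 798, 939 and 897 units in scramble cells. The change was -2.39 ± 0.21, a 5.25-fold fall (adjusted p = 0.000780), which leaves 19.0% of the scramble level with a 95% interval of 13.6 to 26.6%. Zc3h10 shRNA replicate 1 stood above the other two of its group and gave Cidea an SD of 0.46 on the log2 scale there, against 0.12 in scramble cells. Without that array the change was -2.66, and without the other Zc3h10 shRNA arrays or any scramble array it stayed between that value and -2.26.

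Cidec, the droplet fusion gene of white fat, read 1738, 1781 and 1885 units in Zc3h10 shRNA cells, against 2934, 3282 and 3094 units in scramble cells. The groups did not overlap, and the change of -0.78 ± 0.09 was the smallest of those that passed, a 1.72-fold fall (adjusted p = 0.00173). The probe set annotated to both Nop9 and Cideb read 55.4, 57.5 and 58.6 units in Zc3h10 shRNA cells and 40.5, 56.0 and 41.7 units in scramble cells. It overlapped between groups and did not pass (0.33 ± 0.13, adjusted p = 0.200), and it cannot be assigned to either gene. Another probe set, of Nop9 alone, was at 0.045 ± 0.09 (adjusted p = 0.841).

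Both genes that act in the endoplasmic reticulum fell too. Bscl2, whose protein seipin steadies the junction between the endoplasmic reticulum and a growing droplet and whose loss causes lipodystrophy in humans, read 247, 212 and 211 units in Zc3h10 shRNA cells. In scramble cells it read 458, 495 and 477 units, and the change was -1.10 ± 0.10, a 2.14-fold fall (adjusted p = 0.000866). Fitm2, whose protein acts on the lipid of the budding membrane, read 245, 206 and 199 units in Zc3h10 shRNA cells, against 532, 619 and 625 units in scramble cells. Its change of -1.45 ± 0.12 was a 2.74-fold fall (adjusted p = 0.000697), next to Cidea in size. For both genes the highest Zc3h10 shRNA array, replicate 1, lay below the lowest scramble array.

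**Figure D2:**
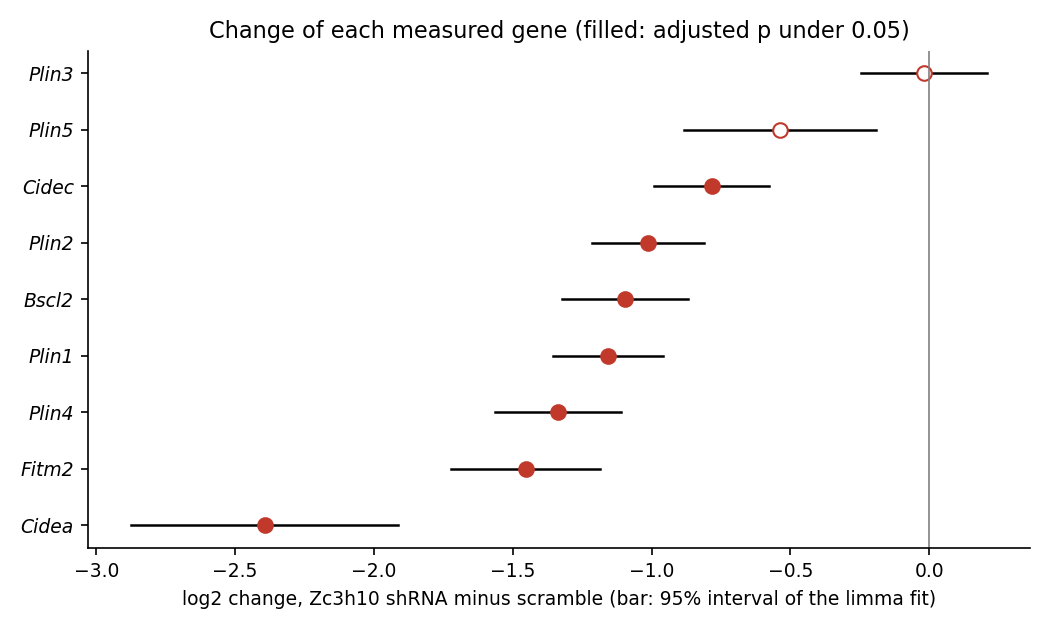
Log2 change of each measured gene (x axis, Zc3h10 shRNA minus scramble), with genes down the page from the highest to the lowest change. Points are limma estimates from 3 against 3 arrays, bars their 95% intervals, and filled points passed an adjusted p of 0.05. The Plin3 bar spans 0, and Cidea at -2.39 lies farthest to the left.

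Whether the genes changed unequally was asked within each array, by subtracting the log2 value of Plin1 from that of each other gene and comparing these differences between groups. Such a ratio shows unequal change and not which gene moved. Relative to Plin1, Cidea was a further 2.36-fold lower in Zc3h10 shRNA cells (log2 difference between groups -1.24), Fitm2 1.23-fold lower (-0.30) and Plin4 1.13-fold lower (-0.18). Plin2 (0.14), Cidec (0.37), Plin5 (0.62) and Plin3 (1.14) were higher relative to Plin1. For each of these 7 the arrays of the groups did not overlap (two-sided exact permutation p = 0.1, the smallest possible, and 0.113 adjusted over the 9 pairs compared). The 7 ratios share Plin1, whose own fall enters each of them, so they are not separate results. What share of all genes separates from Plin1 in this way was not computed. Bscl2 did not differ from Plin1 beyond the spread of the arrays (0.060, exact permutation p = 0.4). Between the CIDE genes, Cidea fell below Cidec by 1.61 on the log2 scale, with pair values of -2.86, -3.68 and -3.76 in Zc3h10 shRNA cells and -1.88, -1.81 and -1.79 in scramble cells (exact permutation p = 0.1). No pair could reach a p under 0.05 with 3 arrays a group.

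**Figure D3:**
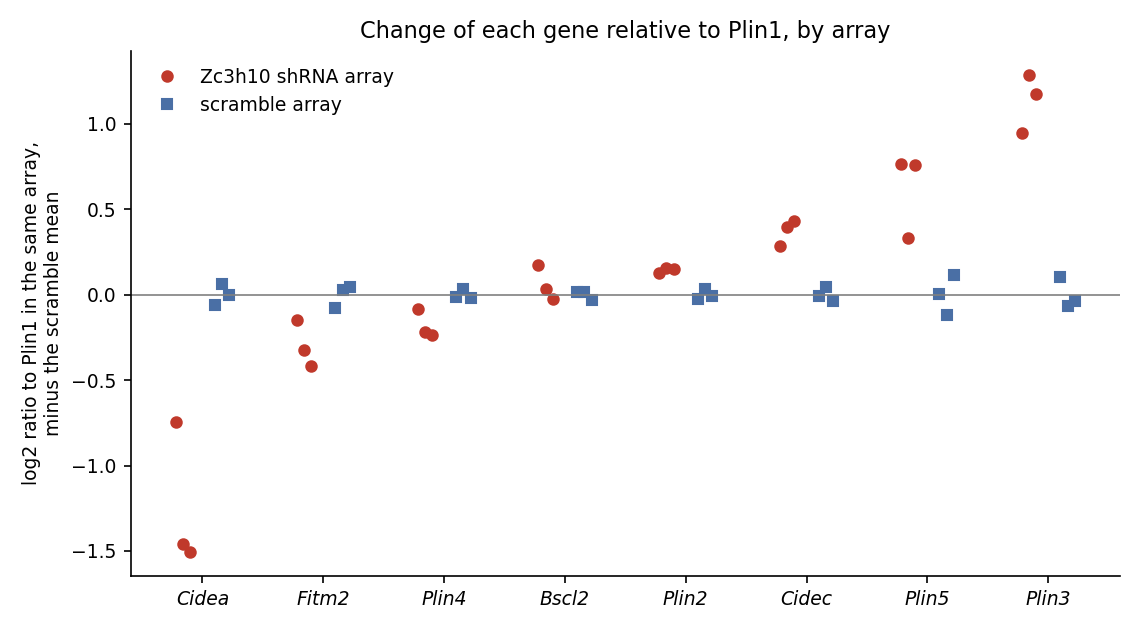
Log2 ratio of each gene to Plin1 in the same array, minus the mean of that ratio over scramble arrays (y axis), with Zc3h10 shRNA arrays as circles left of the scramble arrays, drawn as squares. Circles of Cidea lie lowest and those of Plin3 highest, and Bscl2 is the gene whose circles and squares overlap.

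Of the perilipin genes, 3 lie in 1 stretch of chromosome 17 in the RefSeq gene order. Plin4 and Plin5 are adjacent, with 0 protein-coding genes between them, and 7 separate Plin5 from Plin3. The genes of this stretch are named by position and not by value. Beside Plin4 and Plin5, the next gene, Lrg1, which encodes a secreted glycoprotein, was at -0.91 ± 0.16 and passed (adjusted p = 0.00966). The following 6 genes, Sema6b, Tnfaip8l1, Mydgf, Dpp9, Fem1a and Ticam1, lay between -0.058 and 0.21, and neither they nor Plin3 passed. Sema6b and Tnfaip8l1 had mean log2 levels of 4.02 and 4.25, under the silent gene limit of 4.37, so their values say little about change. The gene on the other side of Plin4, Hdgfl2, which overlaps it, did not pass at -0.046 ± 0.10.

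**Figure D4:**
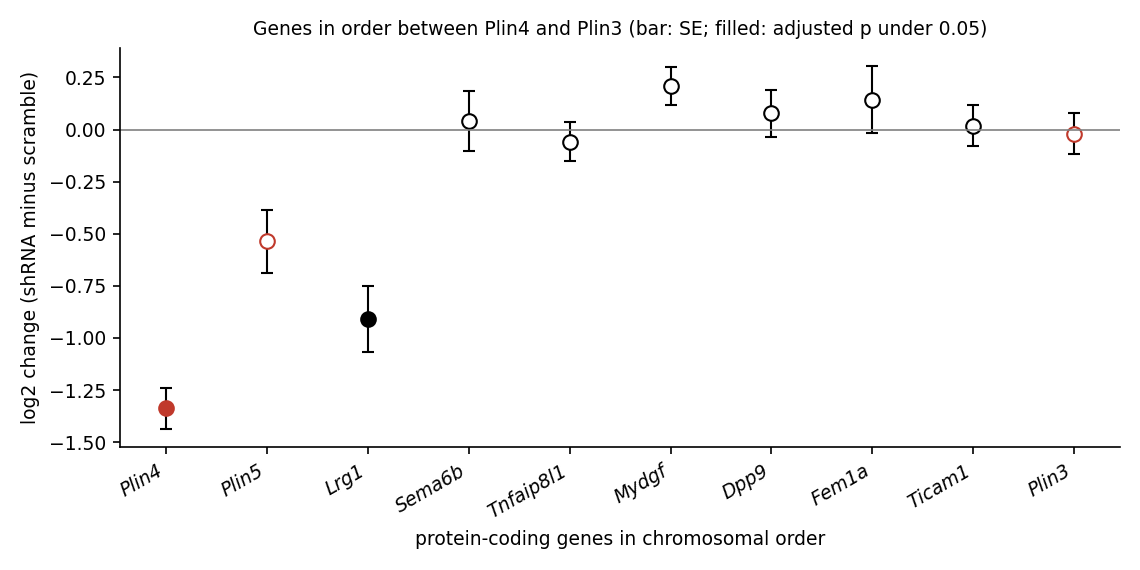
Log2 change (y axis, Zc3h10 shRNA minus scramble) of the protein-coding genes in chromosomal order from Plin4 to Plin3. Points are limma estimates, bars their SE, filled points passed an adjusted p of 0.05, and perilipin genes are red. Plin4, Plin5 and Lrg1 lie below 0, while the genes from Sema6b to Plin3 lie near it.

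Elsewhere, immediate neighbours of the fallen genes mostly did not pass, as held for most genes, of which 12.1% passed in either direction. For Plin1 they were Kif7 (-0.0016, adjusted p = 0.995) and Pex11a, a peroxisome division gene, which was at -1.67 ± 0.10 (adjusted p = 0.000602). For Cidec they were Rpusd3 (-0.18, adjusted p = 0.507) and Jagn1, at -0.52 ± 0.08 (adjusted p = 0.00733). Tubb6, beside Cidea, was at 0.34 (adjusted p = 0.0619), and the gene on its other side was not analysed here. The neighbours of Plin2 (Haus6 and Dennd4c), Bscl2 (Gng3, which overlaps it, and Lrrn4cl) and Fitm2 (Gdap1l1 and R3hdml) lay between 0.027 and 0.36 and did not pass. Of these, Gng3 and R3hdml had mean log2 levels of 3.35 and 3.31, under the silent gene limit, so their values say little about change.

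Most genes whose proteins break down droplet fat or restrain that breakdown fell as well. Of 9 measured genes for droplet lipases and their regulators, 8 were lower and 0 higher (also 0 at an unadjusted p under 0.05). Of all genes, 6.60% passed as lower and 5.51% as higher. The median log2 change of the 9 was -1.05. Pnpla2, the lipase of the first step of lipolysis, was at -0.82 ± 0.10 (adjusted p = 0.00268). Its co-activator Abhd5, which PLIN1 binds, was at -1.001 ± 0.11, and its inhibitor G0s2 at -1.16 ± 0.16 (adjusted p = 0.00360). Lipe, the hormone-sensitive lipase that docks on PLIN1, was at -0.80 ± 0.14 (adjusted p = 0.00878). The monoglyceride lipase gene Mgll was at -1.39 ± 0.12, the Pnpla2 paralog Pnpla3 at -1.68 ± 0.10 and the carboxylesterase genes Ces1d and Ces1f at -1.11 ± 0.10 and -1.05 ± 0.09. Ces1d and Ces1f have close paralogs that can share probes. The exception was Hilpda, another inhibitor of PNPLA2, at -0.0072 ± 0.09 (adjusted p = 0.979).

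Most other genes of droplet formation at the endoplasmic reticulum did not pass. Of 15 measured, 2 were lower and 1 higher, against 6.60% and 5.51% of all genes, and the median was 0.012. At an unadjusted p under 0.05, 2 were lower and 2 higher. Tbc1d20, a GTPase-activating protein tied to RAB18, was at -0.996 ± 0.09 (adjusted p = 0.000881), and Tmem41b, an endoplasmic reticulum scramblase gene, at -0.47 ± 0.09 (adjusted p = 0.0153). Gbf1, an activator of the ARF1 machinery, was at 0.49 ± 0.09 (adjusted p = 0.0106) by the brighter of its 2 probe sets. Fitm1, the paralog of Fitm2 best known from muscle, did not pass at 0.36 ± 0.16 (adjusted p = 0.246), nor did Rab3gap2, a RAB18 activator, at 0.28 ± 0.09 (adjusted p = 0.101). The seipin partner gene Ldaf1 was not analysed here. The count of 2 was 1 without Zc3h10 shRNA replicate 2, without Zc3h10 shRNA replicate 3 or without scramble replicate 2.

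Among 14 enzymes of triglyceride assembly, 5 were lower and 0 higher, against 6.60% and 5.51% of all genes. At an unadjusted p under 0.05, 0 were higher, and the median was -0.29. Dgat2, which makes triglyceride at the droplet, was at -1.67 ± 0.13 (adjusted p = 0.000660), Gpat3 at -1.30 ± 0.11, Lpin1 at -1.13 ± 0.11, Agpat2, another human lipodystrophy gene, at -0.96 ± 0.10, and Gpam at -0.89 ± 0.10 (adjusted p = 0.00166). Of 27 other droplet-bound proteins, 8 were lower and 0 higher by limma, beside the same shares of all genes. At an unadjusted p under 0.05, 11 were lower and 6 higher, and the median was -0.13. The 27 include Vim, which is also counted as a marker below. The sterol synthesis genes Nsdhl and Hsd17b7 were at -1.22 ± 0.10 and -1.20 ± 0.09, the ferroptosis suppressor gene Aifm2 at -1.34 ± 0.13, the retinaldehyde reductase gene Dhrs3 at -1.44 ± 0.12 and the caveolin gene Cav1 at -1.32 ± 0.12 (adjusted p = 0.000881). Clstn3, whose locus also yields an adipocyte droplet protein in mouse, did not pass at -0.29 ± 0.10 (adjusted p = 0.117).

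Of 15 transcription factors and co-activators that act on perilipin or CIDE genes, 7 were lower and 0 higher (0 at an unadjusted p under 0.05). Of all genes, 6.60% passed as lower and 5.51% as higher. The median over the 15 was -0.36. Pparg, the main activator of Plin1, Cidec and Plin4 in fat cells, was at -0.96 ± 0.12 (adjusted p = 0.00222), Cebpa at -1.71 ± 0.14 (adjusted p = 0.000697), Srebf1 at -0.90 ± 0.09, Ppara at -0.64 ± 0.10 and the co-activator Ppargc1b at -0.74 ± 0.16 (adjusted p = 0.0249). The count of 7 was 4 without Zc3h10 shRNA replicate 2, without Zc3h10 shRNA replicate 3 or without scramble replicate 3.

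**Figure D5:**
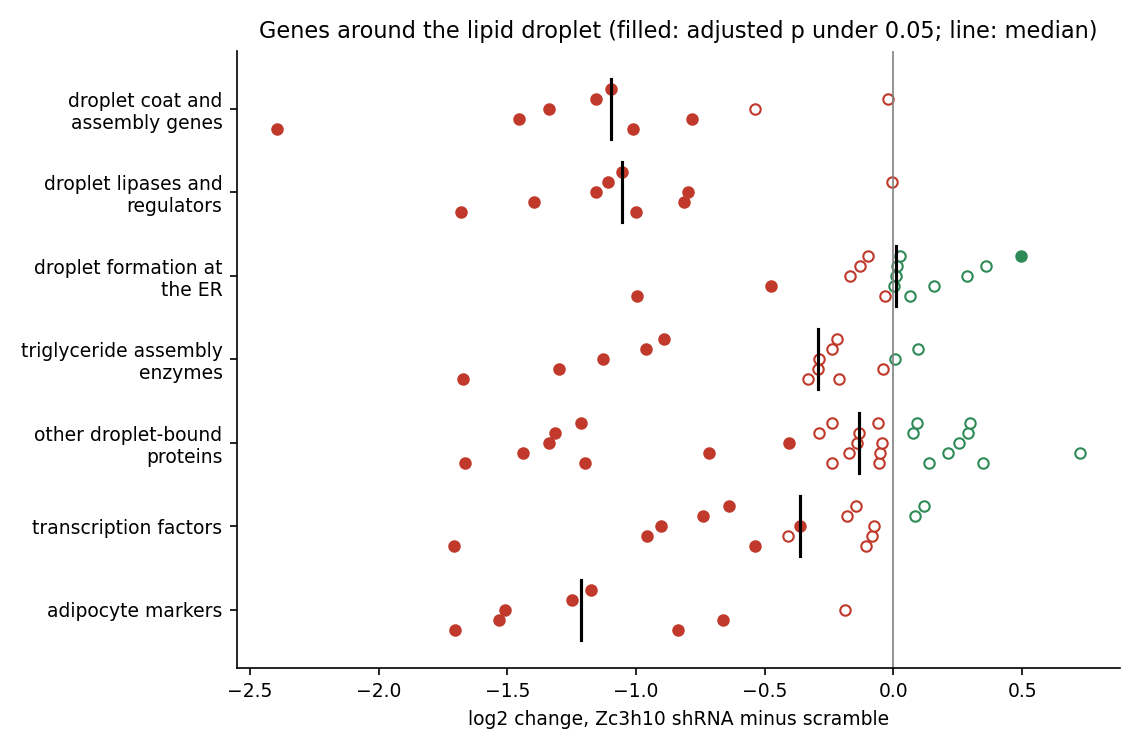
Log2 change (x axis, Zc3h10 shRNA minus scramble) of the 9 coat and assembly genes, of 5 lists of genes around the droplet and of adipocyte markers. Points are genes, filled where the adjusted p was under 0.05, red below 0 and green above, and vertical lines are medians. Medians of the coat genes (-1.10) and the lipase list (-1.05) lie far left of that of the droplet formation list (0.012).

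Adipocyte markers moved with the coat genes. Of 8 measured, 7 were lower, as were 6.60% of all genes. The median over the 8 was -1.21 and the range -1.70 to -0.19, and the change of Cidea lay below that range. The summed intensity of the 8 was 7562 to 8561 units on the Zc3h10 shRNA arrays and 14535 to 16095 units on the scramble arrays. Fabp4 was the brightest of the 8, with means of 4463 units in Zc3h10 shRNA cells and 7064 units in scramble cells. Lep alone did not pass, and it was under the level limit of silent receptor genes in both groups. Of 9 progenitor and fibroblast markers, 2 were higher (Prrx1 at 0.80 and Pdgfrb at 0.75, named after their values were seen) and Pdgfra was lower at -0.66. The other 6 did not pass, while of all genes 5.51% passed as higher and 6.60% as lower. The median log2 change over the 9 was -0.0092. The summed intensity of the 9 was 13829 to 14490 units on the Zc3h10 shRNA arrays and 12065 to 13066 units on the scramble arrays. Vim, which did not pass, was the brightest of them, with means of 6236 units in Zc3h10 shRNA cells and 5918 units in scramble cells. Fewer adipocytes in a culture and less of these RNAs per adipocyte cannot be told apart in bulk RNA, and the part of either in the falls was not tested. Macrophage and endothelial markers were under the level limit in both groups for 4 of 5 and 4 of 4 genes, and 0 of them passed (0 at an unadjusted p under 0.05). Of 6 muscle markers and 6 bone and cartilage markers, Des, Ibsp and Bglap passed as lower, as did 6.60% of all genes. Ibsp was at -1.63 ± 0.19 (adjusted p = 0.00171), with means of 21.2 units in Zc3h10 shRNA cells and 63.9 units in scramble cells. Its Zc3h10 shRNA mean lay 0.0026 log2 under the limit. Des, under the limit in Zc3h10 shRNA cells, was at -0.76 ± 0.19 (adjusted p = 0.0437). Bglap, under it in both groups, was at -0.49 ± 0.10 (adjusted p = 0.0162), so its value says little about change. In each of the muscle list and the bone and cartilage list, 3 genes were under the limit in both groups.

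Genes were ranked by the Euclidean distance of their log2 profile over the 6 arrays, centred on its own mean, to that of a given member. The ranking covered 18157 protein-coding genes without provisional names, each read by its highest-mean probe set. Nearest to Plin1 were Mccc2 (distance 0.055), Zadh2 (0.057), Aldh6a1 (0.086), Mtarc2 (0.090) and Hsd17b7 (0.097), with changes of -1.20 to -1.11. Nearest to Cidec were Slc25a1 (0.067), Xpnpep3 (0.085), Ppp2r5a (0.091), Mtus1 (0.094) and G3bp2 (0.099), with changes of -0.77 to -0.73. Cidea had no neighbour as close: the nearest were Abcd2 (0.25), Tmem45b (0.30), Klb (0.35), Gys2 (0.48) and H2-K1 (0.48), with changes of -2.76 to -2.27. The distance is not scaled, so a gene with a large and variable change, such as Cidea, has few genes near it. Ranking by it also picks genes of like change, so the like changes are no separate result. H2-K1 has close paralogs that can share probes.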

How the data were processed

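Total RNA of 6 cultures, 3 given Zc3h10 shRNA and 3 given scramble, was hybridised to 1 array each, and groups and replicate numbers come from the titles. Nothing but the words biological replicate says how the cultures were made, so p-values measure the spread between these samples. The intensities deposited by the authors are linear, 1 a probe set. The submitters' processing notes list Affymetrix Expression Console and Partek 6.6. The sources used here do not give how background, summary and scaling were handled, and this bears most on dim signals such as that of Plin5. Array maxima were 12519 to 13202 units, and medians were nearly equal. Array number, and not read depth, limits the precision.

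Log2 was taken with no pseudocount, and limma 3.58.1 under R 4.3.3 tested all 33079 probe sets (moderated two-sided test, 4 residual and 4.00 prior degrees of freedom, 95% intervals), with Benjamini-Hochberg adjustment over all of them and the 5% threshold of the series' design text. Of the probe sets, 23043 had 1 symbol, 1740 several and 8296 none here. The highest-mean probe set stood for a gene. Gbf1, Fitm1 and Gpat3, named in the lists, had 2 probe sets each, and the dimmer ones are not reported. Exact permutation tests used scipy 1.17.1. Simulated data for this comparison had 33079 probe sets, with 67, 67 and 66 of the brighter ones changed by 1.5-fold, 2-fold and 3-fold. There limma recovered 38.8%, 65.7% and 90.9% of these changes, with 4 false calls. Far more probe sets, 3238, passed in the real data, so these rates need not hold there. Promoter windows are RefSeq's. Gene order is from the RefSeq table (GRCm38.p6), whose gene coordinates are not printed.

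The 10 genes and all lists were chosen with earlier results of these data known. All 10 genes and Zc3h10 are named whatever their values, with up to 5 genes of smallest p per list, direct partners of the members whatever their value, and the 5 nearest profiles of Plin1, Cidea and Cidec. Motifs and neighbours were added after the data were seen. Alternatives were other scalings, offsets, filters, variance priors, array weights, a replicate block and leaving out each array.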

Additional observations from a re-analysis of the deposited data

How the results depend on the processing

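The 7 lower genes were the count under 14 of 17 alternatives for the 9 genes, and 8 passed, Plin5 added, without dim probe sets (either filter) and with an intensity trend in the prior. No setting called any of the 9 higher. The 7 genes that passed kept their direction and passed under all 17. Plin3 turned from -0.019 to 0.0058 with quantile normalization, to 0.0028 with array weights and to 0.058 without Zc3h10 shRNA replicate 1 (-0.074 to 0.058 with an array left out), and the cause was not tested. Each gene had 1 probe set, so another could not be tried.

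Across the array, 3238 probe sets passed (1812 lower, 1426 higher). The count was 4577 (2374 lower, 2203 higher) with an offset of 16, 4457 (2301 lower, 2156 higher) with an offset of 32, 4492 with the intensity trend, 4454 without probe sets under the median, 1972 with an ordinary t statistic and 1807 to 2578 with an array left out, namely 1807 without scramble replicate 2, 1959 without Zc3h10 shRNA replicate 3, 2030 without scramble replicate 3 and 2068 without Zc3h10 shRNA replicate 2. The droplet formation list had 1 higher gene, but 2 with an offset of 16, without probe sets under the median or with the intensity trend, and 3 with an offset of 32. Its 2 lower genes were 1 to 2 with an array left out. Other droplet-bound proteins had 0 higher genes, but 1 with quantile normalization or without probe sets under the lower quartile, 3 with an offset of 16 or without probe sets under the median, 4 with the intensity trend and 5 with an offset of 32, and 0 to 1 with an array left out (1 without scramble replicate 3). Transcription factors had 7 lower genes, and 4 to 5 with an array left out.

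Same-numbered arrays deviated together with correlations of 0.08, -0.0046 and 0.04, so the numbers were not taken as pairs. With the replicate block, the lower transcription factors numbered 4, and the count of coat and assembly genes stayed 7. The ratio to Plin1 moved to 0.17 with quantile normalization and 0.10 with an offset of 32 for Plin2, and to 0.84 with the offset of 32 for Plin5. Omissions of an array for ratios, chosen after seeing the data, moved none by more than 1 SD. Signal over background limits Plin5 most.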
